A study of Mus musculus with 3 samples.

Results

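Fibroblast-like cells of the vessels and leptomeninges, the thin inner coverings of the brain, were described in cells sorted from the mouse hindbrain. A barcode was taken as such a cell when it held at least 3000 unique molecular identifiers (UMIs, each standing for 1 captured RNA molecule), at most 20% mitochondrial UMIs, at least 5 UMIs of *Dcn*, at least 3 of *Col1a1*, at least 1 of *Lum*, none of the neuronal gene *Syt1* and at most 2 of the endothelial gene *Cldn5*. The rule gave 95 cells of 8082 barcodes that passed the UMI and mitochondrial limits. Since these counts chose the cells, the levels of *Dcn*, *Col1a1* and *Lum*, and every contrast of these cells with other cells, are given as a description with no test.

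The tissue was taken between −6 and −8.12 mm from Bregma, digested with 20 U/ml papain for 30 min at 37°C, and sorted for enhanced yellow fluorescent protein (EYFP) and the nuclear dye DraQ5. All 3 libraries came from male mice 4 to 6 weeks old, with 4 to 6 mice pooled per suspension. The *Gipr*EYFP group has 1 library and the *Glp1r*EYFP group has 2, numbered replicates 1 and 2. In *Gipr*EYFP mice a Cre driven by *Gipr*, the receptor gene of the incretin hormone GIP, switches on the EYFP reporter, and the *Glp1r*EYFP mice are named for the receptor gene of GLP-1. No library of unsorted cells or of mice without the reporter was analysed here, and the animals of a pool could not be told apart.

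Meningeal and perivascular fibroblasts build the collagen-rich matrix around the brain and its larger vessels. Leptomeningeal fibroblasts are known for making retinoic acid through *Aldh1a2*, for secreting growth factors and binding proteins, and for carrying transporters and gap junctions toward the cerebrospinal fluid. Collagen I is a trimer of the products of *Col1a1* and *Col1a2*, and *Dcn* and *Lum* encode small proteoglycans that bind collagen fibrils.

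Promoters are shown for *Col1a2* and *Col3a1*, the fibrillar collagens whose levels followed *Col1a1* across these cells, and for *Aldh1a2*, which was high in some of the cells and at 0 in others. The sequences are the 250 bases before the annotated start on the plus strand, from RefSeq on build GRCm38.p6, and lie outside the transcribed gene at chr6:4505368-4505617 (*Col1a2*), chr1:45311288-45311537 (*Col3a1*) and chr9:71215539-71215788 (*Aldh1a2*). Capitals mark the letters CCAAT, the motif of that name, or their reverse complement ATTGG.
Col1a2: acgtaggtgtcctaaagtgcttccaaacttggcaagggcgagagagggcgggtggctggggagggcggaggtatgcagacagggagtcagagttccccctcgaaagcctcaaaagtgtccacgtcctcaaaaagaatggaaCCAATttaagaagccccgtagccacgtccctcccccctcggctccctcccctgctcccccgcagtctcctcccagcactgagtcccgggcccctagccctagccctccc
Col3a1: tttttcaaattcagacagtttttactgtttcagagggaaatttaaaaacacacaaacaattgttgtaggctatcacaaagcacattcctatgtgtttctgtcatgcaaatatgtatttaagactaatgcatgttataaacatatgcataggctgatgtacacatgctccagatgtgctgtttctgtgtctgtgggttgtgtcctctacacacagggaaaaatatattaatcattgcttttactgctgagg
Aldh1a2: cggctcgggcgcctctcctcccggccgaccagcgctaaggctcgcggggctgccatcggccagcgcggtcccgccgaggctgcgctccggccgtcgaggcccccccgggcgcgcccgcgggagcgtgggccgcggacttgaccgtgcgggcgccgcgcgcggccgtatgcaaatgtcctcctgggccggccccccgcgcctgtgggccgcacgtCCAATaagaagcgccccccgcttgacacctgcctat
The motif starts at −109 in *Col1a2* and at −36 in *Aldh1a2*, and the *Col3a1* window holds none. It was found on either strand in 11120 of 32851 promoter windows of this length (33.8%) and in 3 of the 8 fibrillar collagen genes matched. No entry was matched for *Col1a1*, *Dcn* or *Lum*.

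The *Gipr*EYFP library held 85 of the cells, 1.80% of its 4712 barcodes (exact Clopper-Pearson 95% interval 1.44% to 2.23%). *Glp1r*EYFP replicate 1 held 8 of 2185 barcodes, 0.366% (0.158% to 0.720%), and replicate 2 held 2 of 1185, 0.169% (0.0204% to 0.608%). The intervals cover counting error only, the EYFP gate can set these shares, and with 1 *Gipr*EYFP library their difference has no test. The cells carried 1013517, 65774 and 20776 UMIs in all, with medians per cell of 11099, 7031 and 10388 UMIs and of 3.26%, 2.61% and 2.57% mitochondrial UMIs. The library totals were 62705038, 27277448 and 13568994 UMIs. The *Gipr*EYFP library shared 3 passing barcodes with *Glp1r*EYFP replicate 1 and 2 with replicate 2, and no fibroblast-like barcode was shared. The top scores of the doublet caller Scrublet marked 7 of the 85 *Gipr*EYFP cells and none of the *Glp1r*EYFP cells.

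At the edges of the rule, 2 *Gipr*EYFP cells had exactly 1 UMI of *Lum*, while 12 other barcodes of this library met every condition but had none. Those 12 had a median of 14953 UMIs and a level of *Aldh1a2* of 1736 UMIs per 1000000 UMIs (CPM, over all their UMIs), with a UMI in 12 of 12. Their *Ptgds* stood at 92169 CPM, *Igfbp2* at 4562, *Dcn* at 3916 and *Col1a1* at 1450. They are not among the 95 cells. No barcode that met every other condition had 4 or 5 UMIs of *Dcn*. Exactly 3 of *Col1a1* were found in 1 cell of the *Gipr*EYFP library and 1 of *Glp1r*EYFP replicate 1. *Cldn5* alone kept out 4 and 3 barcodes of these libraries.

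In the 85 *Gipr*EYFP cells the collagen-binding proteoglycan genes *Dcn* and *Lum* were present throughout, because the rule required them. *Dcn* ran from 1205 CPM in the lowest cell through a median of 6667 to 53177 in the highest, and summed to 7879 CPM (exact Poisson interval 7708 to 8054). *Lum* ran from 54.1 through 944 to 5768, with a sum of 1295 (1226 to 1368). *Col1a1* ran from 95.03 through 2040 to 18986, with a sum of 2548 (2450 to 2648). The *Lum* condition kept out the 12 barcodes described above, and no *Gipr*EYFP barcode failed on *Dcn* or *Col1a1* alone. The sums in the *Glp1r*EYFP libraries were 12984 and 16221 CPM for *Dcn*, 760 and 2888 for *Lum*, and 927 and 2166 for *Col1a1*, from 8 and 2 cells.

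Markers that the rule did not use were free to be at 0 in a cell, and were spread less evenly. *Igfbp2*, an insulin-like growth factor (IGF) binding protein, had a UMI in 80 of 85 *Gipr*EYFP cells, from 0 through a median of 2071 to 23459 CPM, with sums of 2802, 958 and 722 CPM in the 3 libraries. *Aldh1a2* had a UMI in 58 cells, from 0 through 364 to 2406 CPM, with sums of 572 (527 to 621), 274 and 144. *Spp1*, which encodes the secreted matrix protein osteopontin, had a UMI in 46, from 0 through 90.1 to 16692 CPM, with sums of 1423 (1350 to 1498), 1505 and 3417. Most cells thus carried *Igfbp2*, while *Aldh1a2* and *Spp1* were each at 0 in many. A UMI of *Aldh1a2* was found in 68.2% of these cells and in 0.258% of endothelial barcodes at a median of 7294.5 UMIs. With every cell thinned to 3000 UMIs the shares were 56.5% and 0.129%.

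The 4 other populations of the *Gipr*EYFP library that served for comparison were chosen by UMI counts of their own markers. They were 870 pericyte barcodes (*Abcc9* and *Kcnj8*), 376 smooth muscle barcodes (*Acta2* and *Tagln*), 776 endothelial barcodes (*Cldn5* and *Flt1*) and 719 oligodendrocyte barcodes (*Mog* among their markers), at medians of 5163.5, 9362.5, 7294.5 and 23539 UMIs. A gene was called higher in the fibroblast-like cells when its summed level was at least 4-fold above each of the 4 and when it had at least 30 UMIs, was detected in 20% of the cells or more and stood at least 2 times above empty droplets (barcodes with at most 100 UMIs). Counts of 0 to 2 entered as 3 UMIs. This is a rule of size and no test, in 1 library.

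Of 12564 genes compared, 239 (1.9%) met it, and the median log2 ratio of all genes to the highest of the 4 populations was −0.65. A gene was compared when it had 30 UMIs in the fibroblast-like cells or in any of the 4. Only 5501 had them in the fibroblast-like cells and could be called. This part differed between lists, with 20 of 20 tested identity genes, 29 of 44 transcription factors and 31 of 51 secreted growth factors and ligands. The fibroblast identity list of 20 genes, which holds the genes of the rule, had 15 called with a median log2 ratio of 3.40. *Dcn* was 212-fold above pericytes (37.2 CPM there), *Col1a2* 9.11-fold at 2486 CPM and *Col3a1* 10.2-fold at 2017 CPM, also against pericytes. *Pdgfra*, the receptor of platelet-derived growth factor A, stood at 766 CPM against 4.51 in endothelial cells. The 5 not called were *Apod*, *Gsn*, *Fn1*, *Foxc1* and *Tbx18*. *Apod*, a lipid carrier, was at 8999 CPM here and at 3087 in oligodendrocytes, and *Fn1*, fibronectin, was at 118 CPM against 797 in endothelial cells. The label of the cells therefore rests on genes that the rule used together with *Col1a2*, *Col3a1*, *Pdgfra*, *Igfbp2* and *Islr*, which it did not.

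**Figure D1:**
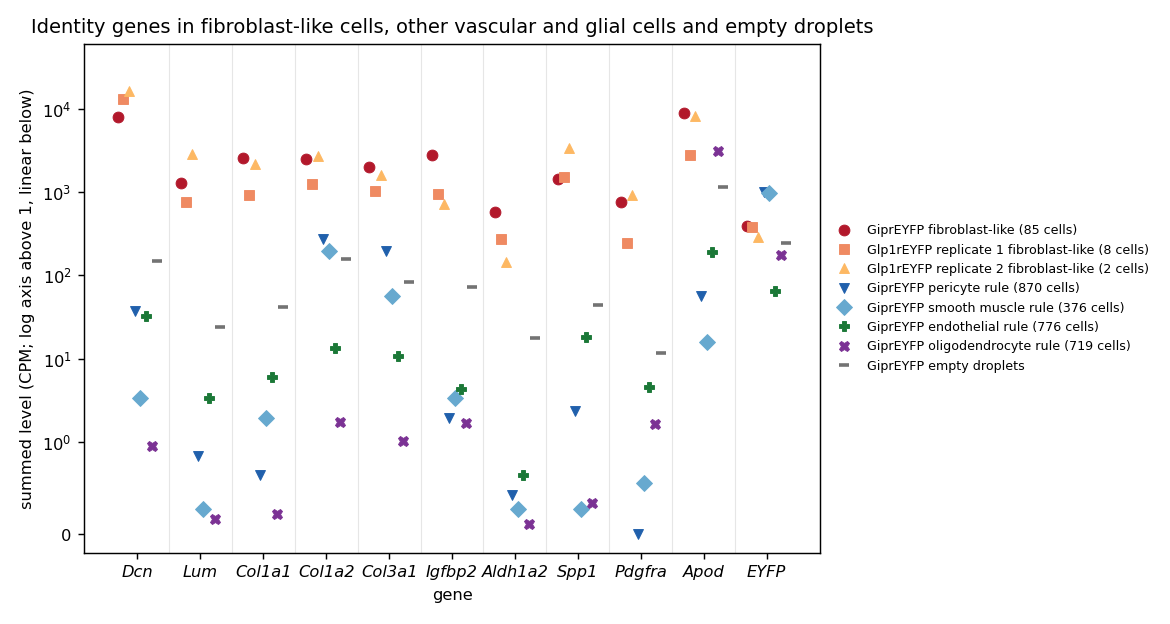
Summed level in CPM (log axis above 1, linear below) of 11 genes in the fibroblast-like cells of the 3 libraries, in 4 other populations of the GiprEYFP library and in its empty droplets. Dcn stands at 7879 CPM in the GiprEYFP fibroblast-like cells and at 37.2 in pericytes, while EYFP stands at 394 and 1012.

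Among structural matrix genes, the fibrillar collagens had 5 of 10 tested genes called (median log2 ratio 2.29). These were *Col1a1*, by which the rule chose the cells, *Col1a2*, *Col3a1*, *Col5a1* and *Col11a1*. The other collagens had 10 of 22 (1.47). Among them were *Col6a1* and *Col6a2*, chains of the microfibrillar collagen VI, at 745 and 330.5 CPM against 1.70 and 20.2 in pericytes, and *Col15a1*, which joins basement membranes to the matrix, at 652 CPM against 8.38 in endothelial cells. The basement membrane chains *Col4a1* and *Col4a2* were not called, at 1065 and 472 CPM against 2361 and 978 in pericytes. Of the 14 laminins and nidogens tested only *Lama1*, a laminin chain of the pial basement membrane, was called, at 243 CPM against 1.77 in endothelial cells. *Lama2*, *Lamc1* and *Nid1* stood at 1.26, 0.717 and 0.982 times their levels in pericytes.

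Of 10 small leucine-rich proteoglycans tested, 5 were called (median log2 ratio 1.96). Beside *Dcn* and *Lum*, by which the rule chose the cells, these were *Ogn*, *Fmod*, at 245 CPM and 18.1-fold above smooth muscle, and *Podn*. *Bgn* and *Prelp* were present at 1025 and 639 CPM but 2.83-fold and 3.18-fold above their nearest population. The elastic fibre and matrix glycoproteins had 17 of 36 called (1.99), among them *Efemp1* (464 CPM, 49.8-fold above oligodendrocytes), the fibrillin gene *Fbn1* (144 CPM, 65.1-fold above smooth muscle), the fibulin *Fbln5* and *Tgfbi*. *Mfap4*, an elastic fibre protein, stood at 380 CPM with 1 UMI in all 376 smooth muscle barcodes. The abundant *Vtn*, *Sparc*, *Mgp* and *Igfbp7* were not called, and the 4967 CPM of *Vtn* were near the 4435 CPM of this gene in empty droplets.

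Genes that process the matrix formed lists of their own. Collagen processing and crosslinking had 4 of 21 (median log2 ratio 0.41), *Pcolce*, an enhancer of procollagen C-proteinase, at 768 CPM (9.98-fold above smooth muscle), *Loxl1*, *Loxl2* and *Adamts2*. The collagen chaperone *Serpinh1* was present in 85 of 85 cells at 1115 CPM but 1.47-fold above pericytes. Proteases and inhibitors had 4 of 21 (0.78), including *Mmp2* at 112 CPM, 30.4-fold above oligodendrocytes.

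The retinoid pathway had 6 of 18 tested genes called (median log2 ratio 0.69). Among these were the retinaldehyde dehydrogenases *Aldh1a2* and *Aldh1a1* (330 CPM, 21.7-fold above oligodendrocytes), the retinol carrier *Rbp4* (1188 CPM, with 4 UMIs in all 870 pericyte barcodes), the retinoic acid carrier *Crabp2* and the receptor *Rarb*. *Cyp26b1*, which degrades retinoic acid, was detected in 5.88% of cells, at 29.6 CPM, and was not called. The IGF system had 7 of 15 called (0.38). The ligand *Igf1* was at 602 CPM, 189-fold above pericytes, and *Igf2* at 138 CPM, 21.6-fold, while the binding proteins *Igfbp2*, *Igfbp3*, *Igfbp4*, *Igfbp5* and *Igfbp6* completed the 7. The receptor *Igf1r* was at 54.3 CPM against 609 in endothelial cells.

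Transporters and connexins of the meninges had 8 of 28 called, with a median log2 ratio over the list of −0.21. *Slc7a11*, the cystine-glutamate exchanger, stood at 1068 CPM (390-fold above endothelial cells), *Slc6a13*, a GABA and taurine transporter, at 911 CPM (10.8-fold above pericytes), and the gap junction genes *Gjb2* and *Gjb6* at 784 and 493 CPM (237-fold and 176-fold above oligodendrocytes). *Slc13a4* and *Slc22a6*, carriers of sulfate and organic anions, were at 237 and 102 CPM with no UMI in the 376 smooth muscle barcodes. Secreted growth factors and Wnt or BMP ligands had 11 of 51 called (median −0.69), among them *Mdk*, *Wnt4*, *Wnt5a*, *Wnt6*, *Bmp6* and *Bmp7*. *Wnt4* was at 507 CPM and was found in 44 of 85 cells, and *Mdk* at 512 in 94.1% of them. *Ptn*, a heparin-binding growth factor related to *Mdk*, was at 11471 CPM but 1.95-fold above pericytes.

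Complement and prostaglandin genes had 7 of 21 called (median log2 ratio 2.05). *Ptgds*, the prostaglandin D2 synthase, was at 26678 CPM, 4.49-fold above the 5941 CPM of oligodendrocytes. Without the 15 cells above 10000 CPM its level was 947 CPM, below that of oligodendrocytes. Without the barcodes with the highest scores of Scrublet, a doublet caller, this list had 6 genes called and the arachnoid marker list 3 in place of 4. Secreted growth factors and ligands had 10 in place of 11. Small leucine-rich proteoglycans had 6 in place of 5, matrix glycoproteins 18 in place of 17 and cell surface receptors 7 in place of 6. The chemokine and cytokine list had 2 of 18 called, *Ccl19* at 485 CPM and *Cxcl16* at 260 CPM, and *Cxcl12* stood at 690 CPM against 4272 in endothelial cells. Cell surface receptors had 6 of 56 (median −0.57), led by *Vcam1* at 820 CPM and *Pdgfra*, while *Pdgfrb* was at 255 CPM against 1934 in pericytes.

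Transcription factors of fibroblasts had 4 of 44 called (median log2 ratio −0.69), *Prrx2*, *Osr1*, *Sox9* and *Foxp2*. Several that are known in meningeal fibroblasts were present but also found in pericytes. *Zic1* was at 388 CPM against 423 in pericytes, *Foxd1* at 325 against 414.5 and *Foxc1* at 236 against 215. Of 39 Hox genes, which mark position along the body axis, 31 had no UMI and 0 had the 30 UMIs needed for a call. The 8 tested had 30 UMIs only in another population and could not have been called.

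**Figure D2:**
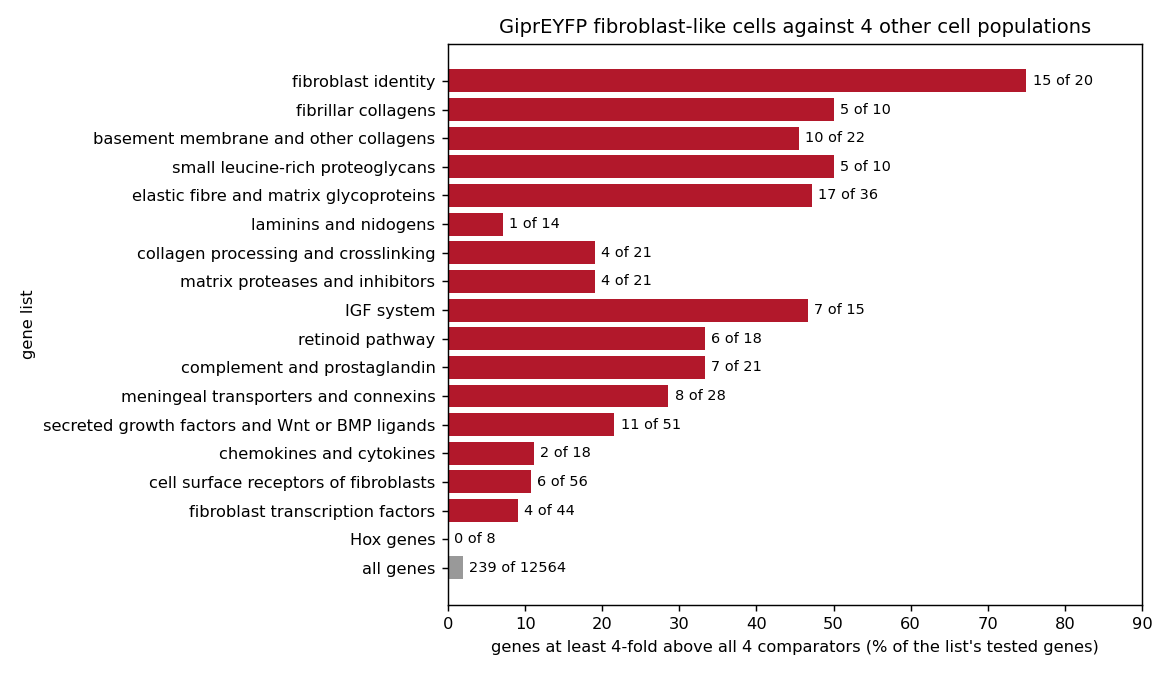
Share of tested genes (percent) of each gene list that were at least 4-fold above all 4 other populations in the GiprEYFP library, with the counts beside each bar. The identity list stands at 15 of 20, beside 239 of 12564 for all genes. The identity, fibrillar collagen and small leucine-rich proteoglycan lists hold genes by which the rule chose the cells. Tested genes include some with 30 UMIs only in another population, which could not be called, as with all 8 Hox genes.

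Across all 3 libraries, the genes most set apart were ranked by their smallest ratio to any population with at least 20 barcodes, among genes detected in 50% or more of the cells of every library. Counts of 0 to 2 again entered as 3 UMIs, so ratios to rarely detected genes depend on that floor. *Dcn* came first at 141-fold, followed by *Igf1* and *Lum* at 87.4-fold each and *Spp1* at 78.8-fold. The rule chose the cells by *Dcn* and *Lum*, so the places of these genes follow from that choice. *F3*, tissue factor, was at 345, 791 and 1540 CPM in the *Gipr*EYFP library and *Glp1r*EYFP replicates 1 and 2, with a smallest ratio of 69.1. *Slc7a11* (62.3-fold), *Cxcl16* (61.9-fold), *Mdk* (57.3-fold), *Lbp* (55.4-fold), *Pdpn* (43.7-fold), *Gjb2* (40.0-fold) and *Wnt4* (38.2-fold) came next. For *Gjb2* and *Wnt4* the smallest ratio fell in *Glp1r*EYFP replicate 2. Each stood at 48.1 CPM there and its count entered as 3 UMIs, so the measured ratios were lower than those given. *Lbp*, which binds lipopolysaccharide, was at 179, 578 and 2166 CPM, and *Pdpn*, podoplanin, at 200, 228 and 193 CPM. *Aox3*, *Cyp1b1* and *Kcnk2* closed the 15 genes at 35.0-fold, 35.0-fold and 32.1-fold. In the *Glp1r*EYFP libraries these levels rest on 8 and 2 cells.

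Markers of oligodendrocytes and of microglia and macrophages were low in most of the cells and high in a few. Over the 85 *Gipr*EYFP cells, the 10 oligodendrocyte markers summed to 3139 CPM with a median cell of 389 CPM and a highest cell of 63577, and none was at 0. The main part came from 2 cells, without which the myelin gene *Mog* was at 6.26 CPM in place of 55.3. The 10 microglia and macrophage markers summed to 452 CPM with a median cell of 0, and 1 cell reached 16909. These 3 cells were kept. Without them 18 matrix glycoproteins and 7 receptors were called in place of 17 and 6, and the other list counts above were the same. The neuron markers summed to 10.9 CPM with 5 of 8 at 0, among them *Syt1*, which the rule required to be at 0. The 5 erythrocyte markers were all at 0.

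The pericyte list, led by *Vtn*, was not confined to a few cells. It summed to 5665 CPM with a median cell of 4805 and none of its 10 genes at 0. Its markers *Rgs5* and *Kcnj8* were at 155 and 37.5 CPM here and at 9028 and 2074 in pericytes. The endothelial list summed to 1186 CPM with a median cell of 869 and none of 9 genes at 0, and *Itm2a* alone gave 922. Its gene *Cldn5* was limited to 2 UMIs per cell by the rule. Astrocyte, ependymal and choroid plexus lists summed to 232, 319 and 281 CPM, with 3 of 8, 5 of 7 and 5 of 8 genes at 0. Smooth muscle markers summed to 447, 2615 and 8279 CPM in the *Gipr*EYFP library and *Glp1r*EYFP replicates 1 and 2. In *Glp1r*EYFP replicate 1 a single cell reached 5952 CPM of *Tagln*, and in replicate 2 a single cell had 7351 CPM of *Acta2* and 4659 of *Tagln*. The smooth muscle rule took 1285 of 2185 and 780 of 1185 barcodes of these libraries, and the part of such transcripts in their values was not tested.

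The reporter transcript was lower in these cells than in pericytes and smooth muscle. *EYFP* was at 394 CPM (356 to 434) in the *Gipr*EYFP cells, from 0 through a median of 290 to 2252 CPM, with a UMI in 72 of 85. *Glp1r*EYFP replicates 1 and 2 had 380 CPM (246 to 561) and 289 CPM (106 to 629). In the *Gipr*EYFP library pericytes had 1012 CPM, smooth muscle 963, oligodendrocytes 177, endothelial cells 65.2 and empty droplets 244. *Gipr* itself had 1 UMI in 1 of the 85 cells, against 36 UMIs in the 870 pericytes, and *Glp1r* had none in any fibroblast-like cell. A count of 0 allows up to 3 UMIs, so low expression of these receptors was not detectable at this depth.

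The cells fell into 3 groups when clustered on their own with 1000 variable genes, each library centred. Centring sets a cell against the mean of its own library. The group of a *Glp1r*EYFP cell, with 8 and 2 cells per library, therefore need not mean likeness to the *Gipr*EYFP cells of that group. Group 1 had 51 cells (42, 7 and 2 in the 3 libraries) and is called here by *Rbp4* and *Igfbp6*, its leading genes by fold. Group 2 had 33 (32, 1 and 0) and is called by *Spp1* and *Lama1*. Group 3 had 11, all from the *Gipr*EYFP library, and is called by *Tcf21* and *Moxd1*. In the *Gipr*EYFP library the medians were 12342, 8200 and 15890 UMIs and 3.93%, 2.38% and 2.76% mitochondrial UMIs. The genes formed the groups, so all values by group are a description. Called higher in a group means at least 4-fold above the summed other *Gipr*EYFP cells, with at least 30 UMIs and detection in 20% or more of the group's cells.

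Of 5501 genes, 99 (1.8%) met this in the *Rbp4* and *Igfbp6* group, 55 (1%) in the *Spp1* and *Lama1* group and 69 (1.25%) in the *Tcf21* and *Moxd1* group. Without the 3 cells rich in oligodendrocyte or macrophage transcripts the counts were 107, 51 and 71. The grouping was repeated with every gene of the gene lists left out. It again gave 3 groups with 91 of the 95 cells in the matching group, and 118 (2.15%), 46 (0.836%) and 68 (1.24%) genes called. Of the 329 list genes with enough UMIs, which had then formed nothing, 41, 18 and 22 were called. Those genes still came from the same cells, and this too is a description.

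In the *Rbp4* and *Igfbp6* group, 4 of 13 retinoid genes and 3 of 11 IGF genes were called. The *Tcf21* and *Moxd1* group had 3 of 13 and 2 of 11, among them *Rarb*, *Igfbp4* and *Igfbp7*, and the *Spp1* and *Lama1* group had none. *Rbp4* had a UMI in 35 of its 42 *Gipr*EYFP cells at 2251 CPM, in 0 of 32 cells of the *Spp1* and *Lama1* group and in 1 of 11 of the *Tcf21* and *Moxd1* group. *Aldh1a2* was found in 39 of 42, 19 of 32 and 0 of 11 cells, at 961, 221 and 0 CPM. *Igf1* (1060, 135 and 17.0 CPM) and *Igfbp6* (895, 3.30 and 45.4) were also highest in group 1. With the list genes left out of the grouping, *Aldh1a2* was at 869 CPM against 160 in the other cells, 5.42-fold, and *Igf1* at 959 against 106, 9.04-fold.

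The same group was highest in the Wnt ligands *Wnt4* (912, 85.7 and 5.67 CPM in groups 1 to 3) and *Wnt6* (363, 6.60 and 11.3), and the chemokine *Ccl19* (871, 49.5 and 68.1). *Fn1* was at 223, 0 and 5.67 CPM. *Lepr*, the leptin receptor, *Fibin*, *Osr1* and *C4b* were also among its 10 leading genes, with *Fibin* at 1092 CPM against 39.6 in the other cells. Immediate early genes, which rise within minutes of stimulation or stress, had 7 of 19 called here, *Fos*, *Fosb*, *Egr1*, *Klf4*, *Hspa1a*, *Hspa1b* and *Socs3*. *Fos* had a UMI in 37 of 42, 4 of 32 and 7 of 11 cells, at 3070, 458 and 692 CPM. With the list genes left out, *Fos* was 3.19-fold above the other cells and not called. The group's mitochondrial share was the highest of the 3, and its part in these values was not tested.

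In the *Spp1* and *Lama1* group, 2 of 33 matrix glycoproteins, 2 of 19 other collagens and 1 of 10 laminins and nidogens were called, while groups 1 and 3 each had 6 of 33 matrix glycoproteins. *Spp1* had a UMI in 30 of its 32 cells at 4126 CPM, against 12 of 42 at 292 and 4 of 11 at 199 in groups 1 and 3. *Lama1* was in 32 of 32 cells at 617 CPM, against 89.9 and 62.4. *Col15a1* (245, 1468 and 482 CPM in groups 1 to 3), *Col12a1* (76.8, 594 and 51.0), the endothelin *Edn3* (73.0, 561 and 17.0) and the transcription factor *Tbx18* (46.8, 360 and 28.4) were also highest in this group. *Apod* was at 20084 CPM, against 5173 and 1526. *Pdgfra* was at 1316 CPM, against 410 and 896. Of 9 oligodendrocyte markers, 3 were called here, and all 3 cells rich in oligodendrocyte or macrophage transcripts belong to this group. Without the 2 cells rich in the former the group's *Mog* was at 4.02 CPM. Its leading genes *Gpm6b* and *Specc1*, at 356 and 185 CPM, were at 727 and 123 in empty droplets. Endothelial, pericyte and smooth muscle markers were called in the groups too. These were endothelial *Flt1* and *Itm2a* in group 1, pericyte *Rgs5* in group 2, and pericyte *Abcc9* and smooth muscle *Des* in group 3.

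**Figure D3:**
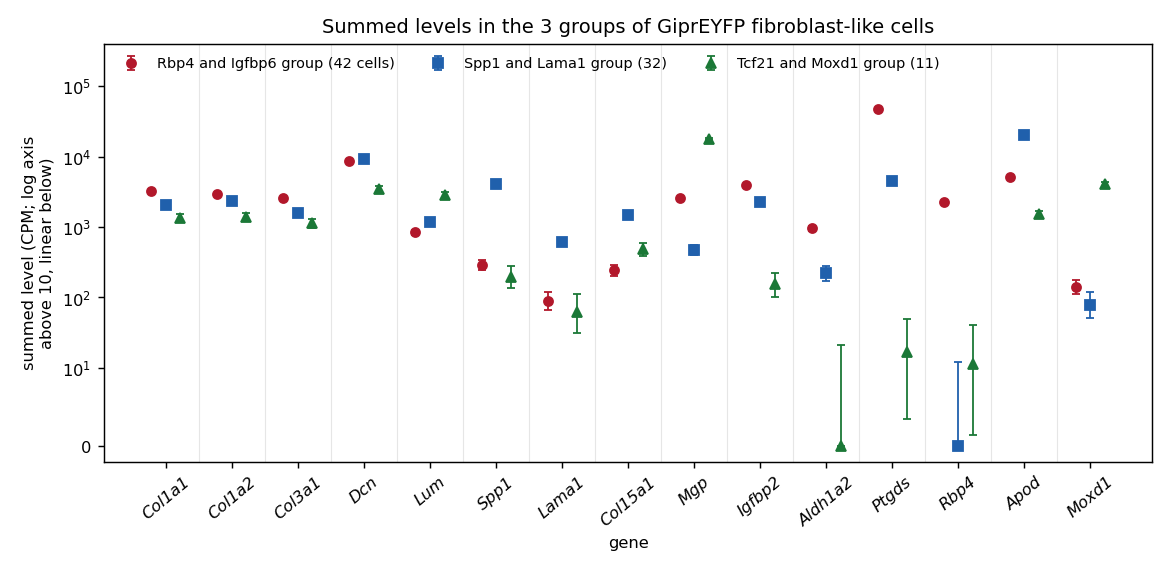
Summed level in CPM (log axis above 10, linear below) of 15 genes in the 3 groups of GiprEYFP fibroblast-like cells, with exact Poisson 95% intervals. Spp1 stands at 292, 4126 and 199 CPM and Mgp at 2579, 475 and 18040 CPM in the Rbp4 and Igfbp6, Spp1 and Lama1, and Tcf21 and Moxd1 groups.

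The *Tcf21* and *Moxd1* group of 11 cells carried genes that were lower in the other cells, some of them at 0 there. *Tcf21*, a mesenchymal transcription factor, had a UMI in 10 of 11 cells at 1032 CPM and none in the other 74 cells, and *Alpl*, tissue-nonspecific alkaline phosphatase, had the same counts of cells at 1276 CPM. *Moxd1* was at 4095 CPM with a lowest cell of 988, against 141 and 79.1 CPM in groups 1 and 2. *Mgp*, the matrix Gla protein that inhibits calcification, was at 18040 CPM with a lowest cell of 3755, against 2579 and 475. *Itga8* (73.0, 129 and 1372 CPM in groups 1 to 3), *Cdh11* (245, 82.4 and 1350), *Cygb* (35.6, 0 and 913) and *Igfbp7* (1148, 2219 and 10078) were also highest there. *Lum* was at 2864 CPM against 841 and 1184. The growth factors *Hgf* and *Wnt2* were among its 10 leading genes, with no UMI in the other *Gipr*EYFP cells.

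Genes present in both other groups were low or at 0 in these 11 cells. *Slc6a13* was at 998, 1286 and 0 CPM in groups 1 to 3, *Slc7a11* at 1607, 726 and 22.7, *Igfbp2* at 3987, 2256 and 153, and *Vtn* at 6523, 5085 and 51.0. *Vtn* there was below its level in empty droplets. The fibrillar collagens were in all 3 groups, with *Col1a1* at 3210, 2081 and 1344 CPM, *Col1a2* at 2933, 2335 and 1395 and *Col3a1* at 2555, 1583 and 1134. *Dcn* was at 8566, 9217 and 3499 CPM. *Il33*, an alarmin cytokine, was in 2 of 42, 29 of 32 and 11 of 11 cells, so it set group 1 apart from the other two. *EYFP* was at 399, 412 and 346 CPM.

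**Figure D4:**
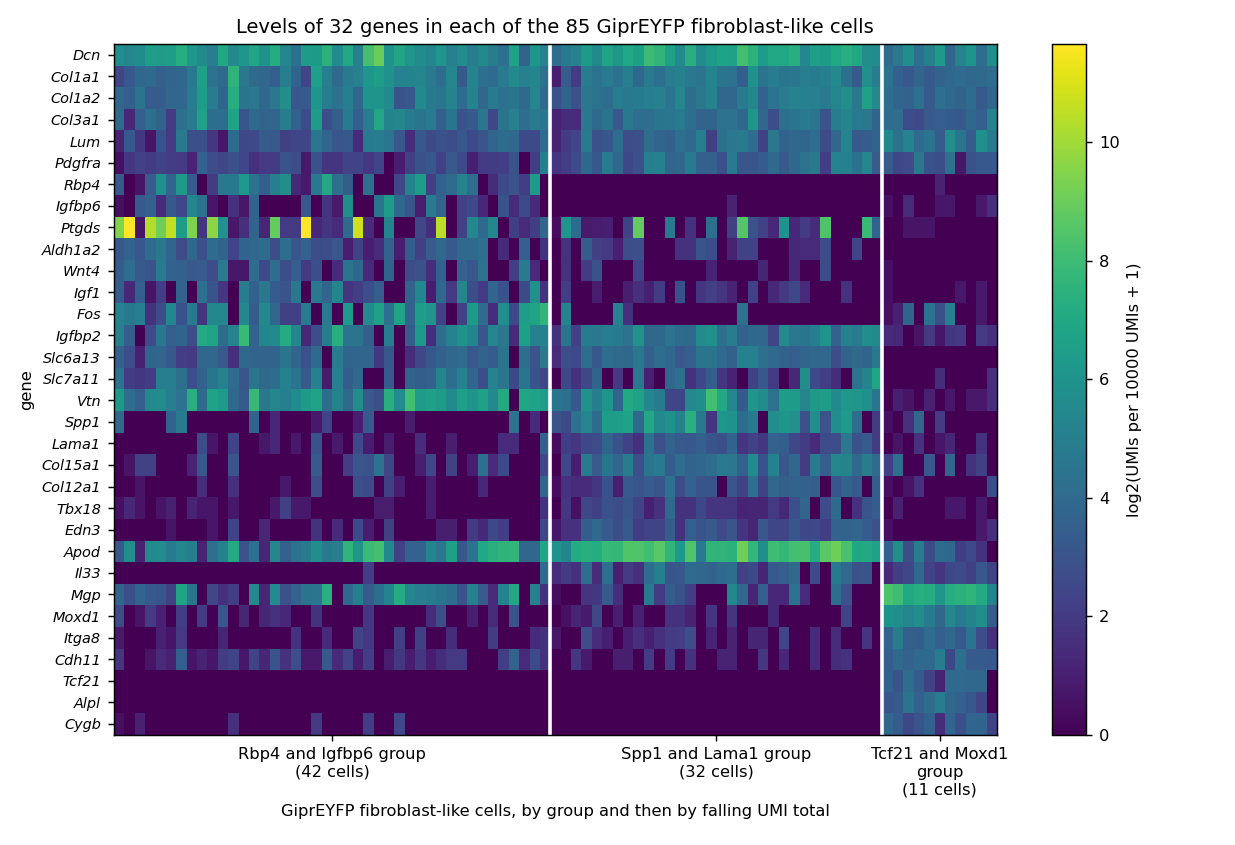
Level of 32 genes (rows; log2 of UMIs per 10000 UMIs plus 1) in each of the 85 GiprEYFP fibroblast-like cells (columns), ordered by group and then by falling UMI total. Tcf21 has a UMI in 10 of the 11 cells of its group and in none of the other 74, and Ptgds reaches its highest levels in single cells of the Rbp4 and Igfbp6 group.

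Marker lists of the meningeal layers were summed in each group. The arachnoid list summed to 49692, 5616 and 233 CPM in groups 1 to 3, of which *Ptgds* gave 48079, 4498 and 17.0, and its median cells were at 2521, 1074 and 169 CPM. In group 1, 3 of its 6 genes were called (*Aldh1a2*, *Crabp2* and *Ptgds*). The dural list summed to 3189, 818 and 18794 CPM, of which *Mgp* gave 2579, 475 and 18040. The pial list summed to 2500, 2576 and 1957 CPM, and the perivascular fibroblast list to 7443, 7958 and 3890. Of the 8 perivascular genes, *Col15a1* and *Il33* were called in group 2, and *Cygb*, *Abcc9* and *Cdh11* in group 3. Their median log2 ratios to the other cells were −1.67, 0.19 and 0.82 in groups 1 to 3. The perivascular sum was thus lowest in group 3, while this median was highest there. No group was given a layer's name.

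Over the 85 *Gipr*EYFP cells, levels of gene pairs were compared as a description, on log2 of UMIs per 10000 UMIs plus 1, in cells that share 1 library and differ in depth. *Col1a1* ran with *Col1a2* and with *Col3a1* (Pearson's r 0.74 for each), and *Aldh1a2* with *Wnt4* (0.71). *Lama1* ran with *Col12a1* (0.74) and *Col15a1* (0.73), and *Igfbp2* with *Slc6a13* (0.72). *Mgp* ran against *Slc6a13* (−0.71). The 3 groups above differ in these same genes.

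Cells were also split by *Aldh1a2* after thinning to 3000 UMIs, which gave 48 positive and 27 negative cells in the *Gipr*EYFP library and left 10 out. The *Glp1r*EYFP libraries had 2 positive and 5 negative and 1 positive and 1 negative cells, too few for the planned comparison over libraries. In the *Gipr*EYFP library *Wnt4* was at 789 CPM in positive and 15.5 in negative cells, *Wnt6* at 291 and 12.4, *Igf1* at 867 and 167, and *Igfbp2* at 4000 and 771. *Mgp* was at 1764 and 10328 CPM and *Il33* at 177 and 625. *Spp1* was at 1127 and 1665 CPM, and *Col1a1* at 3073 and 1575. Over all 3 libraries the positive cells were 37 of group 1, 14 of group 2 and none of group 3.

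*Ptgds* was very uneven among the *Gipr*EYFP cells. It had a UMI in 63 cells and none in 22, with a median of 243 CPM and a highest cell of 323664 CPM that alone held 23.1% of all its UMIs. In 15 cells it was above 10000 CPM and in 6 above 100000, and these 15 held 97.2% of its UMIs. Of the 15, 11 belonged to the *Rbp4* and *Igfbp6* group. The group's median cell was at 425 CPM, and *Ptgds* was the last of its 10 leading genes by fold. Without the 15 cells the level in the *Gipr*EYFP cells was 947 CPM, and 65 of the 85 cells were at or below the 4074 CPM of empty droplets. *Aldh1a2* was at 1171 CPM in the 15 cells and at 417 in the rest.

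The fibroblast-like cells were then compared between the *Gipr*EYFP and *Glp1r*EYFP mice by a like rule of size, in which each *Glp1r*EYFP library had to differ by at least 4-fold. With a single *Gipr*EYFP library this has no test. Of 5501 genes, 1 was higher (0.0182%) and 1 was lower (0.0182%) in the *Gipr*EYFP cells. With 20776 UMIs in *Glp1r*EYFP replicate 2, no gene under 578 CPM could be called higher, and 216 genes were at or above that level.

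The gene that was higher was *Ptgds*. Its level was 26678 CPM in the *Gipr*EYFP cells, 578 in *Glp1r*EYFP replicate 1 and 48.1 in replicate 2, 46.2-fold above the nearer library. The medians per cell were 243, 110 and 51.8 CPM, and the highest *Glp1r*EYFP cell had 2274. The cells of the libraries overlapped at the low end, and without its 15 cells above 10000 CPM the *Gipr*EYFP level was 947 CPM. The difference was 20.8-fold without the barcodes of highest Scrublet score. In oligodendrocytes, where *Ptgds* is also abundant, the order was the opposite, with 5941, 28226 and 38383 CPM.

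The gene that was lower was *Ccn2*, a matricellular growth factor. It was at 723 CPM in the *Gipr*EYFP cells, against 3618 and 3417 CPM, 4.73-fold below the nearer library. The *Gipr*EYFP cells ran from 0 through a median of 312 to 5569 CPM, the 8 cells of *Glp1r*EYFP replicate 1 from 440 through 3741 to 6421, and the 2 cells of replicate 2 were at 0 and 6386. Smooth muscle barcodes of the same libraries had 339, 1083 and 869 CPM. Within the *Rbp4* and *Igfbp6* group, to which cells were assigned relative to their own library, the difference was 3.83-fold, under the 4-fold needed.

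**Figure D5:**
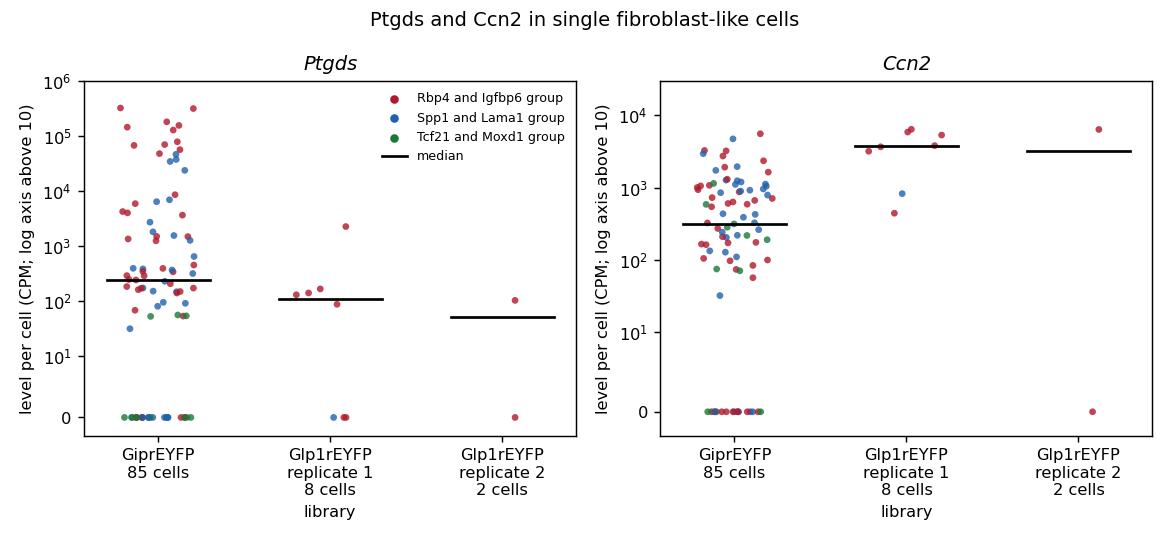
Level of Ptgds (left) and Ccn2 (right) in every fibroblast-like cell, in CPM (log axis above 10, linear below), by library, with the median as a line and the group as color. Ptgds exceeds 10000 CPM in 15 of the 85 GiprEYFP cells and reaches 2274 in the Glp1rEYFP cells.

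Some genes that did not meet the rule, picked here after their values were seen, are given for the few *Glp1r*EYFP cells. *Spp1* had a UMI in all 10 *Glp1r*EYFP cells, from 66.9 to 4441 CPM. The clustering put 9 of them in the *Rbp4* and *Igfbp6* group, where 12 of 42 *Gipr*EYFP cells had a UMI. Since each library was centred, values within the group may not compare like cells. In replicate 2, 1 of the 2 cells in this group had 0 UMIs of *Rbp4* and of *Igfbp6*. Within that group *Spp1* was at 1297 and 3417 CPM in replicates 1 and 2 against 292. *Rbp4* was at 4941 and 4139 CPM in *Glp1r*EYFP replicates 1 and 2 against 1188, and within group 1 at 5336 and 4139 against 2251, with 8 of the 10 cells between 1173 and 12846 CPM and 2 at 0. *Igfbp6* was at 2615 and 1059 CPM against 480.5, and within group 1 at 2824 and 1059 (664 to 1603) against 895 (817 to 979). The intervals of replicate 2 and the *Gipr*EYFP cells overlapped, but they hold counting error only and not the spread among cells. In replicate 1 a single cell held 114 of the 172 UMIs of *Igfbp6*, and in replicate 2 a single cell held all 22. *Aldh1a2* had a UMI in 4 of the 10 cells.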

How the data were processed

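Single cells of the hindbrain were profiled with the 10x 3′ kit (version 3). The authors deposited counts, whole numbers of UMIs per gene and barcode for all barcodes, not normalized, with 32533 genes and 1325256, 874186 and 548950 barcodes per library. The matrix headers name Cell Ranger 4, while the submitters' processing notes name Cell Ranger 6.1.2 and GRCm39, so no gene coordinates were taken from the files. All 3 libraries were used, and 0 columns of sample values were left out.

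A level is the sum of a gene's UMIs in the cells of a library per 1000000 UMIs (CPM), with an exact Poisson 95% interval, and a share has a Clopper-Pearson interval. These intervals hold counting error only, since cells of a library are not replicates, and the labels do not say whether the 2 Glp1rEYFP libraries came from separate sets of mice. Precision follows the UMIs summed, which were 1013517, 65774 and 20776.

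The comparison barcodes, not fibroblast-like themselves, needed at least 5 UMIs of Abcc9 and Kcnj8 (pericyte), 30 of Acta2 and 20 of Tagln (smooth muscle), 10 of Cldn5 and 3 of Flt1 (endothelial), or 3 of Mog beside a further marker that is not reported here (oligodendrocyte), with limits on each other's markers and no Syt1. Populations under 20 barcodes in a library were left out. Doublets were not removed. An alternative left out the highest Scrublet scores at 0.8% per 1000 barcodes, since Scrublet's own threshold called 1.08%, 0.686% and 0.253% of the barcodes.

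Members were clustered after log-normalization to 10000 UMIs (1000 variable genes, 10 principal components, 10 neighbors, Leiden resolution 0.5, seed 1). The self-made rule of size was tested on simulated data drawn from a single mean profile, with no differences between cells and no empty-droplet transcripts. That simulation does not cover a gene as uneven among cells as Ptgds. Work was done with scanpy 1.11.5, leidenalg 0.10.2, scikit-image 0.26.0, scipy 1.17.1, numpy 2.4.6 and pandas 2.3.3 under Python 3.11.15.

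Any gene of the 35 lists could be named. Outside the lists, the text names the 15 genes with the largest smallest ratio to other populations, genes past the rule of size between genotypes, and the 10 leading genes of each group. The members, the lists and the tests were chosen with earlier results of these data known. A count model for Aldh1a2-positive against negative cells was planned, but a library needed at least 5 cells in each class, and only 1 library had them, so it was not run.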

Additional observations from a re-analysis of the deposited data

How the results depend on the processing

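The share of fibroblast-like cells moved by less than its counting interval under UMI minimums of 2000 and 5000, a mitochondrial limit of 10%, removal of the highest Scrublet scores, a rule without Lum and a rule with at least 1 UMI of Col1a1, and ranged from 1.72% to 2.15% in the GiprEYFP library. Between genotypes, the number of genes higher in GiprEYFP was 23 at 2-fold, 2 without the condition on empty droplets (Ptgds among them), 11 to 19 when a Glp1rEYFP library was left out and 4 within the Rbp4 and Igfbp6 group (Fbln1, Gjb6, Igfbp2 and Ptgds). The number lower was 13 at 2-fold, 5 without the condition on empty droplets, 3 at a minimum of 10 UMIs, 4 to 5 when a Glp1rEYFP library was left out and 4 within that group (F3, Fam180a, Lbp and Spp1). Without Glp1rEYFP replicate 1, the genes lower were Ccn2, F3, Lbp, Mfap4 and S100a6, and without replicate 2 Ccn2, Fn1, Igfbp6 and Rbp4. The Ptgds difference was 20.8-fold without the highest Scrublet scores, 77.1-fold within the group and, without Glp1rEYFP replicate 1, 185-fold against a single UMI entered as 3. The cause was not tested, except that fewer libraries or a lower fold admit more genes by construction. Against the 4 other populations, 399 genes were higher at 2-fold, including the 239, and 239 to 244 under the other settings. The cells split into 7 groups at Leiden resolution 1 and into 3 under the other settings tried. Alternatives of the clustering and the comparison with other populations, and those on single groups or on cells rich in oligodendrocyte or macrophage transcripts, were chosen after seeing the data. Depth limits the Glp1rEYFP values, which rest on 8 and 2 cells. The groups of these cells were set relative to the mean of their own library, so values within a group may not compare like cells. The alternatives planned for the Aldh1a2 comparison were not run, since that comparison had 1 library. No paired analysis was possible because the groups share only replicate number 1.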
